A study of Homo sapiens with 12 samples.

Results

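The 9 genes described here are NFE2L2, KEAP1, NQO1, TXN, TXNRD1, SRXN1, PGD, TALDO1 and TKT, which were taken by name from the 18969 genes listed in each file, and all 9 passed the filter on low counts that 12741 genes passed. RNA was sequenced in 12 libraries of HCT116, a human colorectal carcinoma cell line, in 3 groups of 4. In the UNC0642 recovery group the cells had spent 24 h in methionine-free medium with UNC0642, an inhibitor of the histone H3 lysine 9 methyltransferases G9a (EHMT2) and GLP (EHMT1), were washed, and were given back methionine for 24 h with no inhibitor. The DMSO recovery group went through the same restriction and recovery with DMSO, the solvent, in place of UNC0642. The 0 h group is labelled by its time alone, and whether it was taken before or at the end of the restriction is not given in the sources used here. All 3 groups are the same cell line with no engineered allele named in the labels, grown in RPMI-1640 with foetal bovine serum, and the concentration of UNC0642 is not given. Culture time, change of medium and recovery from restriction cannot be told apart in either comparison with 0 h. Replicates are numbered in the titles, but nothing says that they came from separate cultures, and the p-values therefore reflect only how much these libraries vary, which may be technical variation.

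Library totals were 17882236 to 19939398 counts after UNC0642 recovery, 16181056 to 20179847 after DMSO recovery and 14658082 to 18246690 at 0 h. Of 13 colon epithelium markers, 9 were above 1 CPM (counts relative to library size) in every library. Their summed level was 5693 to 5918 CPM after UNC0642 recovery, 5692 to 5846 CPM after DMSO recovery and 5058 to 5179 CPM at 0 h. The intestinal transcription factor gene CDX1 was at 0 in all 3 groups and the villin gene VIL1 was at 0 at 0 h. Markers of blood, fibroblasts and endothelium summed to 28.2 to 37.2 CPM after UNC0642 recovery, 27.8 to 36.5 CPM after DMSO recovery and 21.4 to 44.4 CPM at 0 h, most of it the collagen gene COL1A1 (28.2 ± 1.97 CPM after UNC0642 recovery, 27.1 ± 2.88 CPM after DMSO recovery and 23.3 ± 4.74 CPM at 0 h). Of the 8 of these markers tested, 1 rose and 2 fell after UNC0642 recovery (median log2 fold change -0.90) and 2 rose and 6 fell after DMSO recovery (median -1.70). The haemoglobin gene HBA1 was at 0.76 ± 0.262 CPM after UNC0642 recovery, 0.588 ± 0.234 CPM after DMSO recovery and 1.55 ± 0.191 CPM at 0 h (SD, n = 4 each), and fell by 1.02 after UNC0642 recovery and by 1.36 after DMSO recovery on the log2 scale. The collagen gene COL1A2 was above 1 CPM in 6 libraries (UNC0642 3 and 4, DMSO 1, and 0 h 1, 2 and 3). The deposited gene length exceeded the deposited effective length by 101 to 106 bases in 5 libraries, here called short-gap (UNC0642 1 and 4, DMSO 1, and 0 h 3 and 4), and by 120 to 127 bases in the 7 others, called long-gap. For the 9 genes, values within each gap class stand beside the results, and those without the COL1A2 libraries where they end a call. DMSO 1 is the only short-gap library of the DMSO group. Without the COL1A2 libraries, 0 h 4 is the only library left at 0 h. A call lost in such a setting cannot be told apart from the effect of having fewer libraries. The part of the marker genes in the results was otherwise not tested. In bulk RNA, fewer cells of a type and less RNA per cell cannot be told apart.

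NFE2L2 encodes NRF2, a transcription factor that, with small MAF proteins, binds antioxidant response elements and switches on detoxifying, thiol-reducing and NADPH-producing genes. KEAP1 is the adaptor that hands NRF2 to a ubiquitin ligase, and oxidants or electrophiles that modify its cysteines let NRF2 build up, so NRF2 is controlled largely at the level of the protein, which was not measured here. The thioredoxin system passes electrons from NADPH through thioredoxin reductase to thioredoxin, and the oxidative and non-oxidative arms of the pentose phosphate pathway supply NADPH and shuttle sugar phosphates back to glycolysis. Methionine is the source of S-adenosylmethionine and, by transsulfuration, of cysteine, the limiting amino acid of glutathione.

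Promoter windows of the 9 genes, each from 250 bases before to 50 bases after a transcription start, were read from RefSeq (GRCh38.p14), and all 9 genes had at least 1, with 12 windows in total. They were searched on both strands for TGACNNNGC, the core letters of the antioxidant response element. The letters were found in 4 of the 12 windows, or 33.3%, belonging to 3 of the 9 genes. Of all 35116 windows in the table, 4687 (13.3%) held them, and 1774 of 9167 tested genes with a window (19.4%) had at least 1 window with them. The 4 windows with a match are shown because they are the ones in which the letters occur. They are written from 5′ to 3′ on the gene's own strand, with the matches in capitals.
KEAP1 (chr19:10502722-10503021, minus strand): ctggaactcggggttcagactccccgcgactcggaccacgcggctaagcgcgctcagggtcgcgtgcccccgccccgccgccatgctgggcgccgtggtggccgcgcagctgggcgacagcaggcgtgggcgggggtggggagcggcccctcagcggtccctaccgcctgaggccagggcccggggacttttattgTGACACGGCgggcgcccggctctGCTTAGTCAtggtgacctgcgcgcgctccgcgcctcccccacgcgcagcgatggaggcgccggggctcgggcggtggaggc
TXNRD1, upstream start (chr12:104215529-104215828, plus strand): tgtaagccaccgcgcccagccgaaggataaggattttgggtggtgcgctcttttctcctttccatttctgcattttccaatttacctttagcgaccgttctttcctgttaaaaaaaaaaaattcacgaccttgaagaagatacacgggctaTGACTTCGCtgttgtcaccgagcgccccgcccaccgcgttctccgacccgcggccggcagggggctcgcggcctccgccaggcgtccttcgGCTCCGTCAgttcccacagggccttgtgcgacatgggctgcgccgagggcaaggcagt
TXNRD1, downstream start (chr12:104286782-104287081, plus strand): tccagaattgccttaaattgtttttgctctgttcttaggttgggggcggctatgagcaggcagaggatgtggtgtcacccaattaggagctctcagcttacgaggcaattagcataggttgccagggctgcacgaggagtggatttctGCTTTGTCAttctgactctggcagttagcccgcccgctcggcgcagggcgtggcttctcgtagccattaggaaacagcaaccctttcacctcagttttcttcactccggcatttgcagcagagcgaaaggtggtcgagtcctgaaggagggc
PGD (chr1:10398814-10399113, plus strand): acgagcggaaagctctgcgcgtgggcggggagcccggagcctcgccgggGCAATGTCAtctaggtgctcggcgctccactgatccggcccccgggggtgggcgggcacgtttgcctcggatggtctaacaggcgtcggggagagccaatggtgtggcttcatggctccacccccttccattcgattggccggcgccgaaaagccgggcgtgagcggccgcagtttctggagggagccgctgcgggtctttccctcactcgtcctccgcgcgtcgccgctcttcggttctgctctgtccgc
In KEAP1, TGACACGGC begins 54 bases before the start on the gene's strand, and GCTTAGTCA, a match on the opposite strand, begins 31 bases before it. The upstream TXNRD1 window holds TGACTTCGC 99 bases before the start and, on the opposite strand, GCTCCGTCA 8 bases before it. The downstream TXNRD1 window has GCTTTGTCA on the opposite strand 102 bases before the start, and the PGD window has GCAATGTCA on the opposite strand 201 bases before it. Such a match is a description of letters and not a binding site. No match was found in the 5 windows of NQO1, TXN, SRXN1, TALDO1 and TKT, the 2 of NFE2L2 and the other KEAP1 window (chr19:10503307-10503606). These windows say nothing of elements further away.

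Levels between genes were compared per length, as the FPKM that the authors deposited, which scales fragments by effective length and library size. Effective length is shorter in the long-gap libraries, which weighs most on TXN, the shortest gene at 508 bases. FPKM values of TXN, here and below, therefore also carry the gap class. TXN, which encodes cytosolic thioredoxin, was the most abundant of the 9, at 637 ± 15.4 FPKM after UNC0642 recovery, 657 ± 20.0 FPKM after DMSO recovery and 674 ± 26 FPKM at 0 h (SD, n = 4 each). TKT, which encodes transketolase of the non-oxidative pentose phosphate arm, came next at 259 ± 5.67 FPKM, 274 ± 4.64 FPKM and 247 ± 3.12 FPKM in the same groups. NFE2L2 was the least abundant, at 40.9 ± 1.79 FPKM after UNC0642 recovery, 39.2 ± 1.14 FPKM after DMSO recovery and 43.3 ± 0.965 FPKM at 0 h. The step from TXN to TKT was 2.45-fold after UNC0642 recovery, 2.40-fold after DMSO recovery and 2.73-fold at 0 h.
After either recovery the order was TXN, TKT, TXNRD1, TALDO1, PGD, NQO1, SRXN1, KEAP1 and NFE2L2, and no pair of neighbours overlapped over the 4 libraries. At 0 h TALDO1 (152 ± 5.53 FPKM) stood before TXNRD1 (147 ± 3.02 FPKM) with overlapping ranges, and SRXN1 (62.6 ± 1.41 FPKM) and KEAP1 (61.2 ± 1.79 FPKM) overlapped too. After UNC0642 recovery TXNRD1 was 1.23-fold above TALDO1, and after DMSO recovery 1.29-fold above it.

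**Figure D1:**
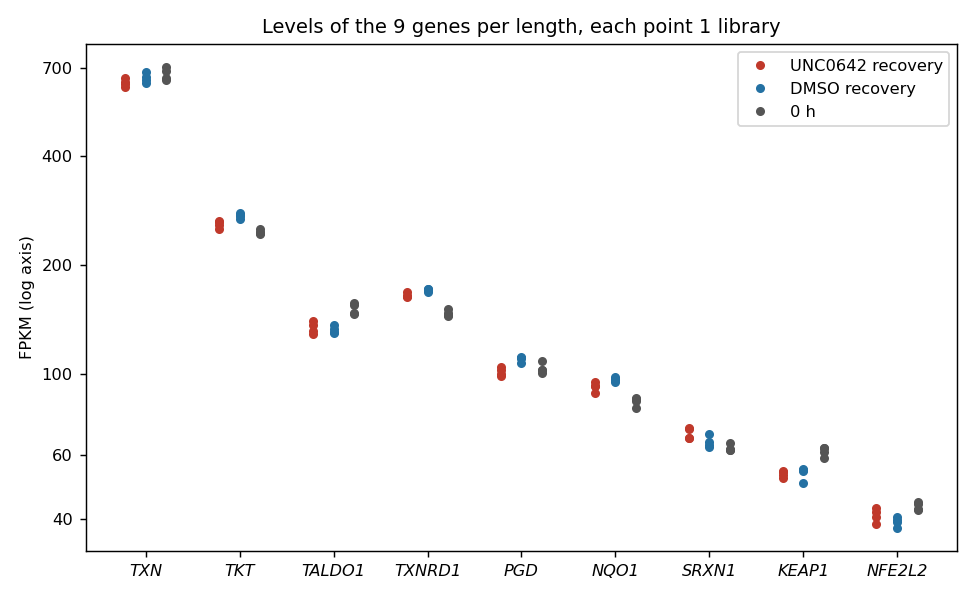
Deposited FPKM of the 9 genes on a log axis, with a point for each of the 4 libraries of UNC0642 recovery, DMSO recovery and 0 h. TXN lies between 619 and 704 FPKM and NFE2L2 between 37.7 and 44.4 FPKM over all libraries, and the points of TXNRD1 and TALDO1 overlap at 0 h and are apart after either recovery.

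Against 0 h, 7 of the 9 genes were called after UNC0642 recovery (2 rose and 5 fell) and 7 after DMSO recovery (3 rose and 4 fell), where a call is an adjusted p under 0.05. Of all genes tested, 47.0% were called after UNC0642 recovery (23.4% higher, 23.6% lower) and 44.1% after DMSO recovery (22.4% higher, 21.7% lower). The 9 genes moved little, with a median size of change of 0.11 on the log2 scale after UNC0642 recovery and 0.14 after DMSO recovery, beside 0.15 and 0.14 over all genes tested. Ranges of the 4 libraries did not overlap with 0 h for 6 genes after UNC0642 recovery (1 higher, 5 lower) and 7 after DMSO recovery (3 higher, 4 lower), where the share over all genes was 40.2% (20.1% higher, 20.1% lower) and 38.3% (19.3% higher, 19.0% lower). Between UNC0642 recovery and DMSO recovery, 2 of the 9 genes were called, both lower after UNC0642 recovery, and 3 had ranges apart, all lower, beside 4.58% called (2.06% higher, 2.53% lower) and 10.5% apart (5.05% higher, 5.42% lower) over all genes. Both calls between the recoveries were lost within the long-gap libraries and without the COL1A2 libraries, DMSO 2 or UNC0642 1. Within the short-gap libraries, where DMSO 1 stands alone for its group, PGD was at -0.16 and TKT at -0.06. After UNC0642 recovery against 0 h, 4 of the 9 were called within the long-gap libraries and 4 without the COL1A2 libraries. The 2 comparisons with 0 h share the 0 h libraries. With library totals alone in place of the main scaling, 67.5% of all calls were higher after either recovery, against 49.8% after UNC0642 recovery and 50.8% after DMSO recovery with it. With a trend on gene length removed the share was 32.9% after UNC0642 recovery and 33% after DMSO recovery, so small changes of single genes depend on the scaling where this is said below.

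**Figure D2:**
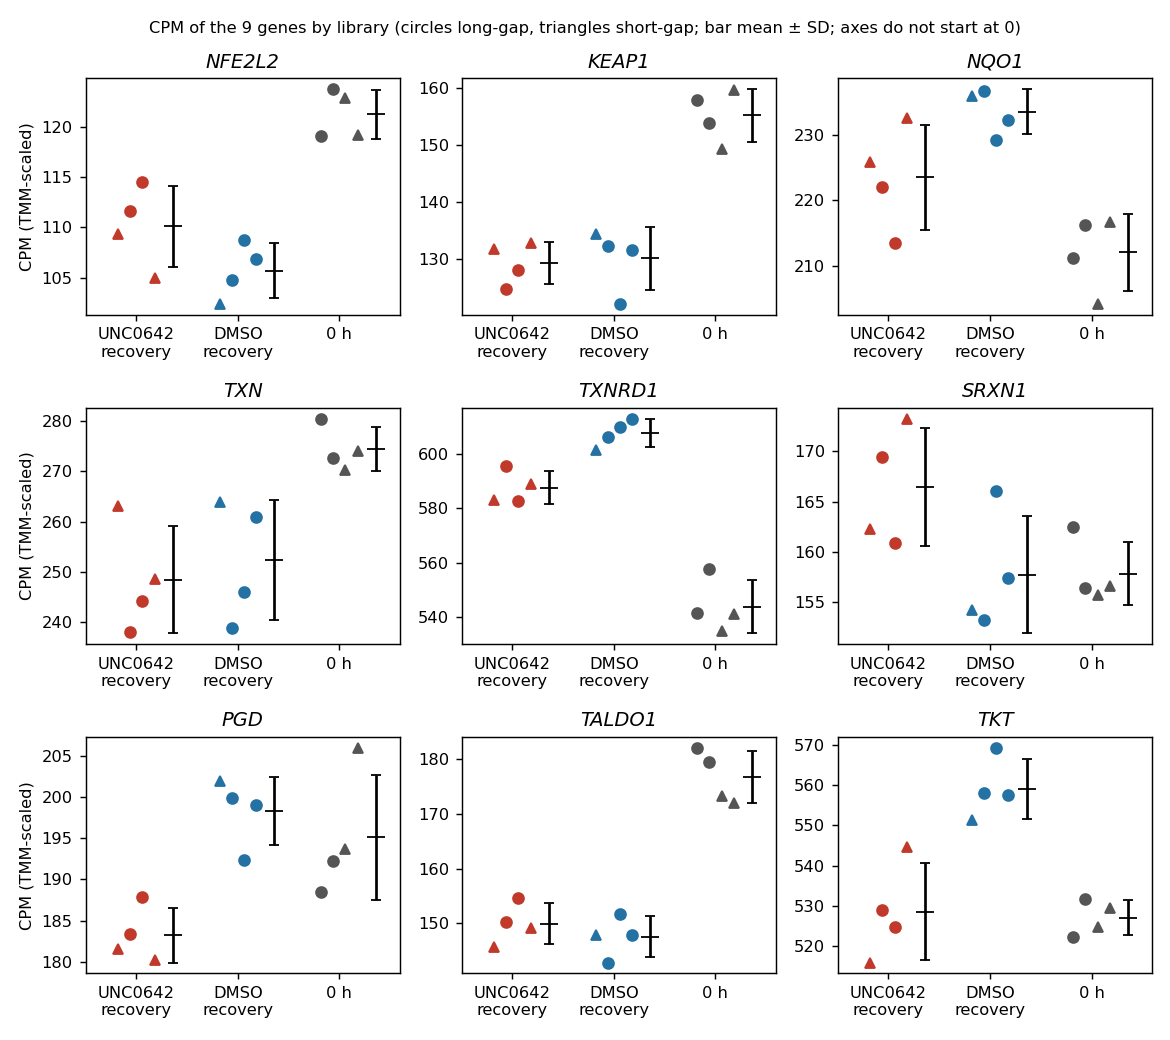
CPM of each of the 9 genes in every library, for UNC0642 recovery, DMSO recovery and 0 h, with circles for long-gap and triangles for short-gap libraries, bars for mean ± SD (n = 4) and axes that do not start at 0. KEAP1 and TALDO1 are below 0 h in all 8 recovery libraries, TXNRD1 is above it in all 8, and PGD and TKT are lower in all 4 UNC0642 libraries than in all 4 DMSO libraries.

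The regulator gene NFE2L2 and the gene of its inhibitor KEAP1 were both lower after recovery. NFE2L2 stood at 109, 112, 114 and 105 CPM in UNC0642 1 to 4, at 102, 105, 109 and 107 CPM in DMSO 1 to 4, and at 119, 124, 123 and 119 CPM in 0 h 1 to 4. The 8 recovery libraries were all below the 4 at 0 h, while the UNC0642 and DMSO ranges overlapped. NFE2L2 fell 1.10-fold after UNC0642 recovery (log2 fold change -0.14 ± 0.03 SE, adjusted p = 0.00107) and 1.15-fold after DMSO recovery (-0.20 ± 0.03, adjusted p = 1.6e-05). Against 0 h the log2 fold change within the short-gap and the long-gap libraries was -0.18 and -0.10 after UNC0642 recovery (adjusted p = 0.00427 and 0.0831), and -0.24 and -0.19 after DMSO recovery, where both were called. The UNC0642 call was also lost with library totals alone (-0.08, adjusted p = 0.056), in log2(FPKM + 1) (-0.08, adjusted p = 0.0633) and without the COL1A2 libraries (-0.12, adjusted p = 0.168). UNC0642 and DMSO recovery differed by 0.06 ± 0.03 (adjusted p = 0.394, 95% interval -0.01 to 0.13). Exons of NFE2L2 touch those of AC019080.1 on the same strand and of AGPS and AC079305.1 on the other (GENCODE 29), and with the strand used in counting not given, reads of overlapping genes cannot be told apart.

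KEAP1 was measured at 132, 125, 128 and 133 CPM in UNC0642 1 to 4, at 134, 132, 122 and 132 CPM in DMSO 1 to 4, and at 158, 154, 149 and 159.7 CPM in 0 h 1 to 4. No recovery library reached the lowest at 0 h, and the 2 recovery groups covered the same range. KEAP1 fell 1.2-fold after UNC0642 recovery (-0.26 ± 0.03, adjusted p = 9.46e-08) and 1.19-fold after DMSO recovery (-0.25 ± 0.03, adjusted p = 2.12e-07). Both calls held in all 29 other settings tried. Within the short-gap and the long-gap libraries KEAP1 was at -0.22 and -0.30 after UNC0642 recovery and at -0.20 and -0.28 after DMSO recovery. The difference between UNC0642 and DMSO recovery was -0.0085 ± 0.03 (adjusted p = 0.944, 95% interval -0.08 to 0.06).

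NQO1, the NAD(P)H quinone reductase gene that is often used as a readout of NRF2, was higher after recovery while NFE2L2 was lower. NQO1 had 226, 222, 214 and 233 CPM in UNC0642 1 to 4, 236, 237, 229 and 232 CPM in DMSO 1 to 4, and 211, 216, 204 and 217 CPM in 0 h 1 to 4. All 4 DMSO libraries were above 0 h, whereas UNC0642 3 fell inside the 0 h range. After DMSO recovery NQO1 rose 1.10-fold (0.14 ± 0.03, adjusted p = 0.000206), with 0.17 within the short-gap and 0.12 within the long-gap libraries, and without the COL1A2 libraries it was at 0.10 (adjusted p = 0.131). After UNC0642 recovery it rose 1.05-fold (0.08 ± 0.03, adjusted p = 0.032), a call that was lost without 0 h 1 (adjusted p = 0.0647), 0 h 3 (0.134), UNC0642 1 (0.0752) or UNC0642 4 (0.131). That change was 0.12 within the short-gap libraries (adjusted p = 0.0145), 0.03 within the long-gap ones (0.635), 0.03 with the length trend removed (0.461) and 0.04 without the COL1A2 libraries (0.581). NQO1 was at -0.06 ± 0.03 in UNC0642 against DMSO recovery (adjusted p = 0.241, 95% interval -0.12 to -0.01). The antisense gene AC092115.2 touches exons of NQO1.

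The 2 core genes of the cytosolic thioredoxin system were called in opposite directions, TXNRD1 higher and TXN lower after recovery, though TXN changed sign with trends on length and GC content removed. TXNRD1, which encodes the selenoprotein that reduces thioredoxin with NADPH, was at 583, 595, 583 and 589 CPM in UNC0642 1 to 4, at 601, 606, 609.9 and 613 CPM in DMSO 1 to 4, and at 542, 558, 535 and 541 CPM in 0 h 1 to 4. Every DMSO library was above every UNC0642 library, and every UNC0642 library above every 0 h library. TXNRD1 rose 1.08-fold after UNC0642 recovery (0.11 ± 0.02, adjusted p = 7.2e-05) and 1.12-fold after DMSO recovery (0.16 ± 0.02, adjusted p = 2.74e-07). The short-gap and long-gap values were 0.12 and 0.10 after UNC0642 recovery and 0.16 and 0.15 after DMSO recovery. Of the 29 other settings, the UNC0642 call was lost in 1, with the length trend removed (0.04, adjusted p = 0.0916), and the DMSO call in none. UNC0642 against DMSO recovery gave -0.05 ± 0.02 (adjusted p = 0.222, 95% interval -0.09 to -0.01), which did not pass although the ranges were apart.

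TXN stood at 263, 238, 244 and 249 CPM in UNC0642 1 to 4, at 264, 239, 246 and 261 CPM in DMSO 1 to 4, and at 280.5, 273, 270.3 and 274 CPM in 0 h 1 to 4. The recovery libraries were all below 0 h and overlapped each other. TXN fell 1.10-fold after UNC0642 recovery (-0.14 ± 0.03, adjusted p = 0.000341) and 1.09-fold after DMSO recovery (-0.12 ± 0.03, adjusted p = 0.00226). At 508 bases it is the shortest of the 9 genes by deposited length, and its call depended on the corrections tried. With trends on length and GC content removed together, TXN was at 0.05 after UNC0642 recovery (adjusted p = 0.11) and at 0.06 after DMSO recovery (adjusted p = 0.0672). With the length trend alone removed it was at -0.07 after UNC0642 recovery (adjusted p = 0.0456) and -0.02 after DMSO recovery (adjusted p = 0.615), and in log2(FPKM + 1) at -0.08 (0.0355) and -0.03 (0.363) in the same order. With library totals alone the DMSO value was -0.07 (adjusted p = 0.0786), and without the COL1A2 libraries the UNC0642 value was -0.13 (adjusted p = 0.0768). Within the short-gap libraries TXN was at -0.09 after UNC0642 recovery (adjusted p = 0.0858) and -0.05 after DMSO recovery (0.564), and within the long-gap ones at -0.20 (0.00014) and -0.15 (0.000926). UNC0642 against DMSO recovery was -0.02 ± 0.03 (adjusted p = 0.775, 95% interval -0.09 to 0.04).

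SRXN1, which encodes sulfiredoxin, the enzyme that repairs over-oxidised peroxiredoxins, was not called in any of the 3 comparisons. It was at 162, 169, 161 and 173 CPM in UNC0642 1 to 4, at 154, 153, 166 and 157 CPM in DMSO 1 to 4, and at 162.5, 156, 156 and 157 CPM in 0 h 1 to 4. The UNC0642 range overlapped the others at its lower end, and 0 h 1 stood above the other 3 libraries at 0 h. SRXN1 was at 0.08 ± 0.03 after UNC0642 recovery against 0 h (adjusted p = 0.0507) and at -0.0011 ± 0.03 after DMSO recovery (adjusted p = 0.982). The first of these passed in 11 of the 29 other settings, among them library totals alone (0.14, adjusted p = 0.000712) and log2(FPKM + 1) (0.13, adjusted p = 0.00284). It also passed without 0 h 1 (adjusted p = 0.0356), DMSO 1 (0.039), DMSO 3 (0.0458), UNC0642 1 (0.039) or UNC0642 3 (0.0313). Within the short-gap and long-gap libraries it was at 0.10 (adjusted p = 0.084) and 0.05 (0.408). Against DMSO recovery, UNC0642 recovery gave 0.08 ± 0.03 for SRXN1 (adjusted p = 0.183, 95% interval 0.01 to 0.14). An exon of SRXN1 touches one of AL121758.1 on the same strand.

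PGD, which encodes the phosphogluconate dehydrogenase of the second NADPH-producing step of the pathway, was lower after UNC0642 recovery than in both other groups. PGD stood at 182, 183, 188 and 180.2 CPM in UNC0642 1 to 4, at 202, 199.8, 192 and 199 CPM in DMSO 1 to 4, and at 189, 192, 194 and 206 CPM in 0 h 1 to 4. All 4 UNC0642 libraries were below the lowest DMSO and the lowest 0 h library, though UNC0642 3 lay within 1 CPM of 0 h 1, while DMSO and 0 h overlapped. Against DMSO recovery PGD fell 1.08-fold (-0.11 ± 0.03, adjusted p = 0.017, 95% interval -0.17 to -0.05). The size of this change held when single libraries were left out (-0.13 to -0.11), but the call was lost without DMSO 1 (adjusted p = 0.0541), DMSO 2 (0.0541), UNC0642 1 (0.055) or UNC0642 4 (0.053). It was -0.16 within the short-gap libraries (adjusted p = 0.126), -0.09 within the long-gap ones (0.292) and -0.11 without the COL1A2 libraries (0.126). Against 0 h PGD fell 1.06-fold after UNC0642 recovery (-0.09 ± 0.03, adjusted p = 0.0134) and was at 0.02 ± 0.03 after DMSO recovery (adjusted p = 0.536). The UNC0642 call against 0 h was lost without 0 h 4 (-0.06, adjusted p = 0.0883), with library totals alone (-0.03, adjusted p = 0.427), in log2(FPKM + 1) (-0.03, adjusted p = 0.411) and within the long-gap libraries (-0.04, adjusted p = 0.511), and was -0.14 within the short-gap ones (0.00596). The DMSO value passed upward with library totals alone (0.08, adjusted p = 0.0325) and in log2(FPKM + 1) (0.08, adjusted p = 0.0234).

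TALDO1 and TKT encode transaldolase and transketolase, the carbon-shuffling enzymes of the non-oxidative arm, and they were called in opposite directions after DMSO recovery. TALDO1 stood at 146, 150.3, 155 and 149 CPM in UNC0642 1 to 4, at 148, 143, 152 and 148 CPM in DMSO 1 to 4, and at 182, 179, 173 and 172 CPM in 0 h 1 to 4. The 8 recovery libraries were all below 0 h and shared 1 range. TALDO1 fell 1.18-fold after UNC0642 recovery (-0.24 ± 0.03, adjusted p = 9.35e-08) and 1.2-fold after DMSO recovery (-0.26 ± 0.03, adjusted p = 2.08e-08). Both calls held in all 29 other settings, with -0.23 and -0.25 within the short-gap and long-gap libraries after UNC0642 recovery and -0.22 and -0.29 after DMSO recovery. UNC0642 against DMSO recovery gave 0.02 ± 0.03 for TALDO1 (adjusted p = 0.779, 95% interval -0.04 to 0.08).

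TKT was at 516, 529, 525 and 545 CPM in UNC0642 1 to 4, at 551, 558, 569 and 558 CPM in DMSO 1 to 4, and at 522, 532, 525 and 529.5 CPM in 0 h 1 to 4. The DMSO libraries were all above both other groups, which overlapped. TKT rose 1.06-fold after DMSO recovery against 0 h (0.09 ± 0.02, adjusted p = 0.00223), and was at 0.0041 ± 0.02 after UNC0642 recovery (adjusted p = 0.897). Against DMSO recovery it fell 1.06-fold after UNC0642 recovery (-0.08 ± 0.02, adjusted p = 0.0265, 95% interval -0.13 to -0.04). That call was lost without DMSO 2 (adjusted p = 0.0591), DMSO 3 (0.0988), DMSO 4 (0.0594), UNC0642 1 (0.109) or UNC0642 3 (0.082), with changes of -0.10 to -0.07 over single libraries left out. It was -0.06 within the short-gap libraries (adjusted p = 0.647), -0.09 within the long-gap ones (0.079), -0.10 without the COL1A2 libraries (0.0508) and -0.08 in log2(FPKM + 1) (0.0552).
The rise of TKT after DMSO recovery was 0.06 within the short-gap libraries (adjusted p = 0.224), 0.09 within the long-gap ones (0.0089), 0.08 without the COL1A2 libraries (0.132) and 0.05 with the length trend removed (0.0562). After UNC0642 recovery TKT passed as higher than 0 h with library totals alone (0.06, adjusted p = 0.0161) and in log2(FPKM + 1) (0.07, adjusted p = 0.0142), and as lower with length and GC trends removed (-0.09, adjusted p = 0.000748).

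**Figure D3:**
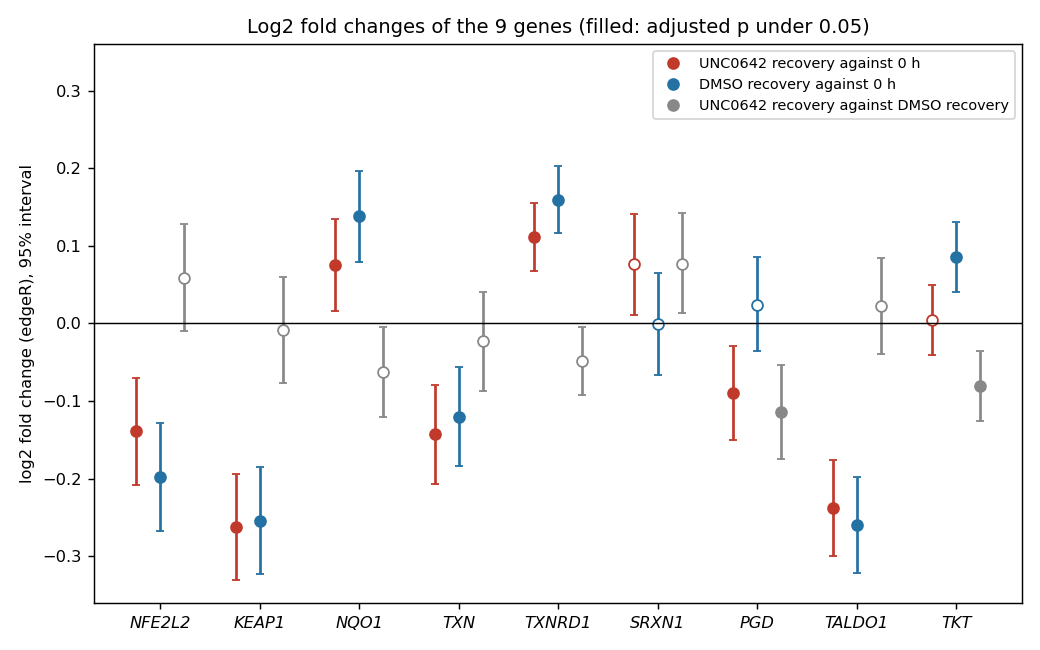
Log2 fold change of the 9 genes with 95% intervals from the edgeR fit for UNC0642 recovery against 0 h, DMSO recovery against 0 h and UNC0642 against DMSO recovery, filled where the adjusted p was under 0.05. KEAP1 and TALDO1 lie near -0.25 against 0 h in both recoveries, and in UNC0642 against DMSO recovery PGD at -0.11 and TKT at -0.08 are the called genes.

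The genes around NRF2 itself were mostly lower where they were called, though not with library totals alone. Of 24 partners and regulators, all tested, 3 rose and 10 fell after UNC0642 recovery and 2 rose and 8 fell after DMSO recovery, with a median log2 fold change of -0.03 in each, beside 0.01 over all genes in each. With library totals alone this became 6 up and 7 down, and 5 up and 5 down, in the same order. SQSTM1, the autophagy receptor p62 that can sequester KEAP1, rose in both, at 366 ± 7.15 CPM after UNC0642 recovery and 366 ± 8.15 CPM after DMSO recovery, against 300 ± 9.42 CPM at 0 h (0.29 ± 0.03 in each, adjusted p = 9.02e-11 and 1.08e-10). Among those that fell was CREBBP, an acetyltransferase coactivator of NRF2 (-0.18 ± 0.03 after UNC0642 recovery and -0.23 ± 0.03 after DMSO recovery). In the same order, the ubiquitin-like NEDD8 fell in both (-0.24 ± 0.04, adjusted p = 4.99e-06, and -0.20 ± 0.04, adjusted p = 5.19e-05). The small MAF partner MAFF fell in both too (-0.27 ± 0.06, adjusted p = 0.000381, and -0.46 ± 0.06, adjusted p = 2.33e-07). The other small MAF genes, MAFG and MAFK, were called in neither, and are named after their values were seen. NFE2L1, which encodes the related factor NRF1, was at 286.5 ± 3.74 CPM at 0 h and fell after both recoveries. The fall was -0.113 ± 0.025 after UNC0642 recovery (adjusted p = 0.000375) and -0.205 ± 0.025 after DMSO recovery (adjusted p = 5.26e-08). NFE2L1 was also the only one of the 24 called between the recoveries, at 265 ± 4.47 CPM after UNC0642 recovery and 249 ± 4.00 CPM after DMSO recovery (0.09 ± 0.03, adjusted p = 0.0269). This call was lost without DMSO 1 (adjusted p = 0.0755), DMSO 3 (0.0812), DMSO 4 (0.0561), UNC0642 1 (0.0937) or UNC0642 4 (0.0715). It was also lost within the short-gap libraries (0.13, adjusted p = 0.152), within the long-gap ones (0.06, 0.411) and without the COL1A2 libraries (0.09, 0.244).

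Other NRF2 target genes were more often higher than lower after recovery. Of 31 tested out of 34, 18 rose and 3 fell after UNC0642 recovery and 18 rose and 2 fell after DMSO recovery, with medians of 0.19 and 0.17, beside 23.4% higher and 23.6% lower over all genes after UNC0642 recovery and 22.4% higher and 21.7% lower after DMSO recovery, the shares against which the counts of all 4 lists stand. The direction of the list held with library totals alone (20 up and 1 down, 19 up and 1 down) and with the length trend removed (15 up and 4 down, 16 up and 2 down). The ferritin heavy chain gene FTH1, for iron storage, was at 1881 ± 50.8 CPM after UNC0642 recovery, 1753 ± 16.0 CPM after DMSO recovery and 1218 ± 8.93 CPM at 0 h. The efflux transporter gene ABCC3 was at 26.1 ± 1.21, 22.4 ± 3.34 and 7.33 ± 0.321 CPM in those groups, and rose 3.56-fold after UNC0642 recovery (1.83 ± 0.09, adjusted p = 2.82e-17) and 3.03-fold after DMSO recovery (1.60 ± 0.09, adjusted p = 2.32e-15). HMOX1, haem oxygenase, was at 18.3 ± 0.301, 20.5 ± 0.562 and 19.4 ± 0.966 CPM, and GCLM, the modifier subunit of glutamate-cysteine ligase, at 50.2 ± 1.84, 49.4 ± 2.40 and 49.5 ± 3.29 CPM. Neither was called in any of the 3 comparisons with the main settings. In log2(FPKM + 1) HMOX1 passed after DMSO recovery against 0 h (0.13, adjusted p = 0.016) and between the recoveries (-0.16, 0.0488). With length and GC trends removed it passed after UNC0642 recovery against 0 h (-0.17, adjusted p = 0.0231). In the same list the haem genes FECH (0.20 ± 0.04 and 0.24 ± 0.04) and BLVRB (0.18 ± 0.05 and 0.13 ± 0.05) rose after UNC0642 and DMSO recovery and the glutathione reductase gene GSR fell (-0.15 ± 0.03 and -0.08 ± 0.03), and these 3 are named after their values were seen. SLC7A11, the cystine importer, fell at -0.19 ± 0.07 after UNC0642 recovery (adjusted p = 0.0301) and -0.34 ± 0.07 after DMSO recovery (adjusted p = 0.000295). The first of these was lost without 0 h 1 (adjusted p = 0.114), 0 h 4 (0.0887), UNC0642 1 (0.0869) or UNC0642 4 (0.173). It was also lost within the long-gap libraries (-0.05, adjusted p = 0.699), without the COL1A2 libraries (-0.20, 0.201), with library totals alone (-0.13, 0.151), with DESeq2 (-0.19, 0.133) and in log2(FPKM + 1) (-0.11, 0.287).
Between the recoveries 3 of the 31 targets were higher after UNC0642 recovery and 2 lower. The shares over all genes, for all 4 lists in this comparison, were 2.06% higher and 2.53% lower. The efflux transporter gene ABCC2 was at 66.6 ± 1.58 CPM after UNC0642 recovery and 36.8 ± 2.36 CPM after DMSO recovery (0.86 ± 0.05, adjusted p = 4.04e-14), and was at 32.7 ± 2.68 CPM at 0 h. FTH1 was called too (0.10 ± 0.02, adjusted p = 0.000609), though not without the COL1A2 libraries (adjusted p = 0.0521), and so was TRIM16L, at 11.1 ± 0.768 and 8.48 ± 0.597 CPM (0.39 ± 0.10, adjusted p = 0.0132), though not without DMSO 4 (0.06) or UNC0642 1 (0.0569), nor within the short-gap (0.32, 0.539) or the long-gap libraries (0.37, 0.161). The 2 lower genes were the cytosolic isocitrate dehydrogenase gene IDH1 (-0.14 ± 0.04, adjusted p = 0.0302) and the carbonyl reductase gene CBR3 (-0.87 ± 0.25, adjusted p = 0.0402), which is named after its value was seen. CBR3 has the wider SE of these 2 genes. Its call was lost within the long-gap libraries and without the COL1A2 libraries, DMSO 4, UNC0642 1 or UNC0642 4. In these settings no gene of this list was called lower. The CBR3 call was also lost within the short-gap libraries, where DMSO 1 stands alone for its group. The IDH1 call was lost without DMSO 1 (adjusted p = 0.108), DMSO 2 (0.0541), DMSO 4 (0.0569), UNC0642 1 (0.106), UNC0642 3 (0.113) or UNC0642 4 (0.0673). It was also lost within the short-gap libraries (-0.23, adjusted p = 0.105), within the long-gap ones (-0.09, 0.466), without the COL1A2 libraries (-0.09, 0.48) and in log2(FPKM + 1) (-0.14, 0.0581). Ferritin and the AKR1C genes have near-identical copies, so their counts are uncertain.

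In the rest of the thioredoxin and peroxiredoxin system, calls were more often lower, except with library totals alone. Of 37 tested out of 38, 7 rose and 14 fell after either recovery, with medians of -0.05 after UNC0642 recovery and -0.04 after DMSO recovery. With library totals alone 11 rose and 10 fell after UNC0642 recovery and 12 rose and 11 fell after DMSO recovery. Of the 6 peroxiredoxin genes, which encode thiol peroxidases, all fell after DMSO recovery and all but PRDX5 after UNC0642 recovery. PRDX1 was at 735 ± 8.02 CPM after UNC0642 recovery, 754 ± 7.24 CPM after DMSO recovery and 893 ± 16.2 CPM at 0 h (-0.28 ± 0.02 and -0.24 ± 0.02, adjusted p = 4.22e-13 and 1.36e-11). PRDX2 fell by 0.40 and 0.37, PRDX6 by 0.34 and 0.33 and PRDX3 by 0.25 and 0.23 on the log2 scale after UNC0642 and DMSO recovery, and these calls of PRDX1, PRDX2, PRDX3 and PRDX6 held in all 29 other settings. PRDX4 and PRDX5 are named after their values were seen. PRDX4 fell by 0.13 and 0.15 on the log2 scale after UNC0642 and DMSO recovery, while PRDX5 was at -0.002 ± 0.03 (adjusted p = 0.964) after UNC0642 recovery and at -0.08 ± 0.03 (adjusted p = 0.0398) after DMSO recovery. TXNRD2, the mitochondrial thioredoxin reductase gene, was at 0.22 ± 0.06 after UNC0642 recovery (adjusted p = 0.00302) and 0.27 ± 0.06 after DMSO recovery (adjusted p = 0.000452), the same sign as TXNRD1, and is named after its values were seen. Between the recoveries 1 gene, the glutaredoxin GLRX3, was lower after UNC0642 recovery (-0.13 ± 0.04, adjusted p = 0.0395), and its call was lost without any single recovery library other than DMSO 3 (adjusted p = 0.0581 to 0.128). The GLRX3 call was also lost within the short-gap libraries (-0.14, adjusted p = 0.473), within the long-gap ones (-0.14, 0.173), without the COL1A2 libraries (-0.11, 0.362), with library totals alone (-0.12, 0.052) and with only the 8 libraries compared (-0.13, 0.0515).

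Among the other pentose phosphate and NADPH-supplying genes, 7 of 25 tested out of 30 rose and 6 fell after UNC0642 recovery, and 7 rose and 5 fell after DMSO recovery, with medians of 0.05 and 0.02. IDH1 was at 77.2 ± 3.81 CPM after UNC0642 recovery, 85.1 ± 2.36 CPM after DMSO recovery and 55.0 ± 1.49 CPM at 0 h, and its mitochondrial counterpart IDH2 at 41.6 ± 1.79, 39.5 ± 3.35 and 25.6 ± 1.07 CPM in the same groups. Both isocitrate dehydrogenase genes rose against 0 h, IDH1 by 0.49 and 0.63 and IDH2 by 0.70 and 0.63 after UNC0642 and DMSO recovery. The mitochondrial folate enzyme gene MTHFD2 fell (-0.20 ± 0.03 and -0.22 ± 0.03), at 325 ± 5.51 and 322 ± 10.5 CPM, against 374 ± 7.19 CPM at 0 h. Over the 114 distinct tested genes of these 4 lists, 33 rose and 33 fell after UNC0642 recovery and 31 rose and 29 fell after DMSO recovery. Between the recoveries 4 of them were higher and 3 lower after UNC0642 recovery, beside 2.06% and 2.53% over all genes. Without the COL1A2 libraries 37 of these genes were called after UNC0642 recovery and 34 after DMSO recovery against 0 h, and 2 between the recoveries.

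**Figure D4:**
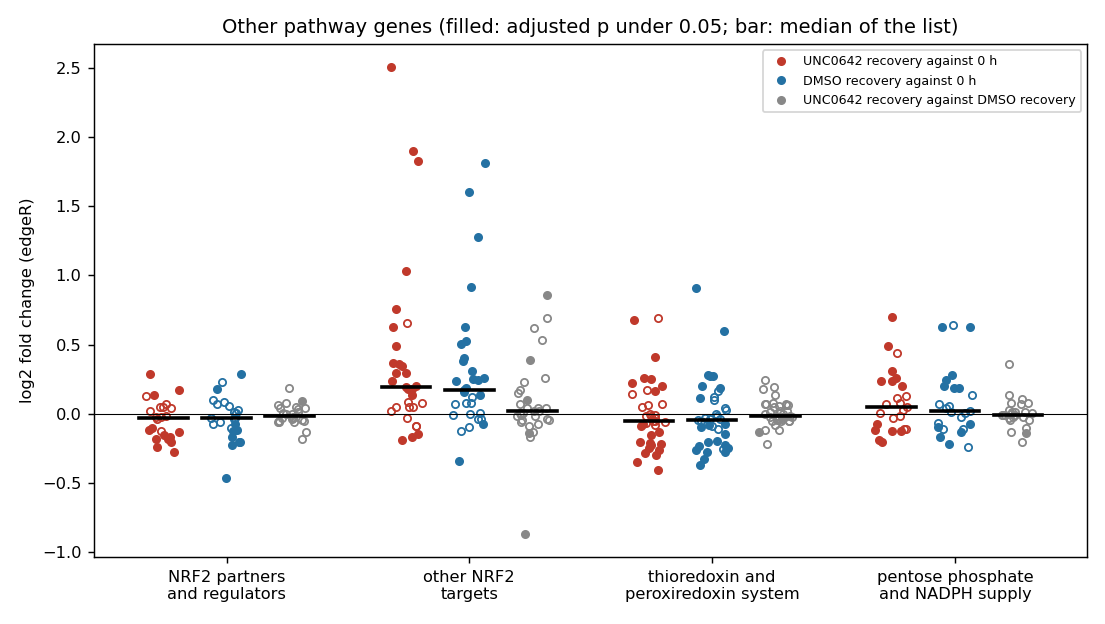
Log2 fold change of every tested gene of the 4 lists in the 3 comparisons, with filled points for genes called at an adjusted p under 0.05 and a bar at the median of the list. Other NRF2 targets have the highest medians (0.19 and 0.17 against 0 h), and most points of UNC0642 against DMSO recovery are open and near 0.

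Over the 12 libraries the 9 genes fell into sets with opposite patterns. The Pearson correlation of log2 CPM was 0.91 between NFE2L2 and TALDO1, 0.87 between KEAP1 and TALDO1, 0.86 between KEAP1 and TXN and 0.86 between NQO1 and TXNRD1. NFE2L2 and NQO1, a regulator and its classical target, had the lowest value of the 36 pairs at -0.93, and TXNRD1 was at -0.90 with TALDO1 and -0.88 with KEAP1. SRXN1 and PGD were at -0.80. These points share libraries and group means, so the values describe the 3 groups as much as single libraries. With group means removed the 36 values ran from -0.75 to 0.69, beside -0.93 to 0.91 with them. The medians were -0.04 and -0.06 in that order, which does not show whether a given pair kept its value.

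**Figure D5:**
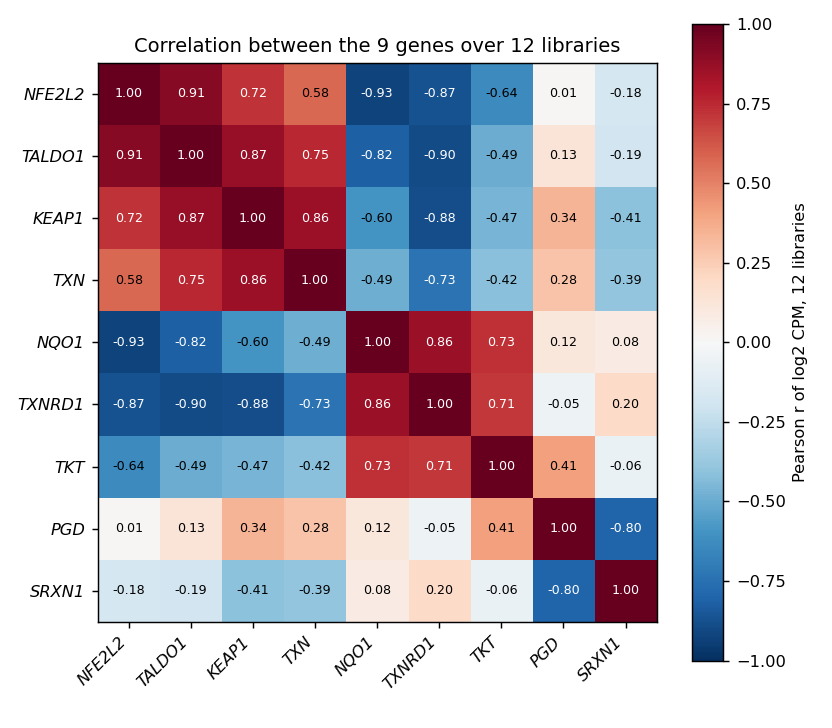
Pearson correlation of log2 CPM between the 9 genes over 12 libraries, with genes ordered by pattern. NFE2L2, TALDO1, KEAP1 and TXN form 1 positive block, NQO1, TXNRD1 and TKT another, and the blocks are negative with each other, down to -0.93 for NFE2L2 and NQO1.

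The genes most like each member were taken from 9861 genes averaging 3 or more in log2 CPM, by the same correlation over 12 libraries. TALDO1 was closest to H2AFX (0.99) and MRTO4 (0.98), KEAP1 to NME1 (0.98) and SAP30BP (0.98), and TXNRD1 to ATP9A (0.98) and CTDSPL (0.98). NFE2L2 was nearest to PVRL3 (0.96) and LATS2 (0.96), NQO1 to ALDH3A2 (0.96) and B3GNT7 (0.94), and TXN to PSMB7 (0.95) and POMP (0.94), which encode parts or helpers of the proteasome. TKT was at 0.90 with EIF4B, and PGD had the zinc-finger genes ZNF227 (0.93) and ZNF45 (0.88). SRXN1 had no near match, with AMPD2 (0.85) and ZNF185 (0.85) the closest.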

How the data were processed

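RNA from 12 HCT116 libraries in 3 groups of 4 was analysed, grouped by the sample titles. Trizol extraction is given in the labels' protocols, and RSEM 1.2.4, Bowtie and build hg18 are named in the submitters' processing notes. The strandedness of the kit and of the counting is not given in the sources used here. Per the file headers, the deposited values are expected counts (estimates by RSEM, often fractional) and FPKM for each gene; the deposited TPM were not used. Expected counts were rounded and filtered with filterByExpr. The test was the quasi-likelihood F-test of edgeR 4.0.16 in R 4.3.3, with TMM factors and all 12 libraries in 1 fit. Tests are two-sided, with Benjamini-Hochberg adjustment over 12741 genes, and every adjusted p comes from this fit unless another setting is named. CPM are scaled by TMM, and correlations use a prior count of 2. Errors are SD over 4 libraries for levels and SE for log2 fold changes.

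The 9 genes and the lists were chosen with earlier results of these data known. Named list genes are up to 4 per list and comparison with the smallest p, plus HMOX1, GCLM and SLC7A11; the text gives a part of them, and some are not reported here. No library was treated as a duplicate, because the counts of the 18 pairs within groups differed beyond sampling noise (chi-square over its degrees of freedom from 2.03 to 3.48). The script was tested on simulated counts. Alternatives were RLE factors, library totals alone, other filters, unrounded counts, the replicate number as a block, the gap class, a length trend removed, DESeq2 1.42.0, limma-voom and log2 FPKM with pseudocounts of 1 and 0.1 (limma 3.58.1), only the 8 libraries compared, and each library left out. A length and GC trend removed, with GC known for 90.7% of tested genes, and leaving out the COL1A2 libraries were added after seeing the data. Promoter windows come from RefSeq (GRCh38.p14), and no coordinate was set against hg18.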

Additional observations from a re-analysis of the deposited data

Results flagged for a closer look

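In SRXN1 the 0 h 1 library, at 162.5 CPM, stood apart from the other 3 libraries at 0 h by the gap to its nearest neighbour. It was 1 of 27 gene and group combinations checked, and chance alone flags about 1 in 20. The change of PGD after UNC0642 recovery differed from its change after DMSO recovery by -0.11 on the log2 scale, and that of TKT by -0.08. These differences are the same tests as UNC0642 against DMSO recovery (adjusted p = 0.017 and 0.0265 by edgeR), since the 0 h libraries cancel. PGD and TKT were lower in 4 of 4 UNC0642 libraries than in every DMSO library. Neither call held within a single gap class.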

How the results depend on the processing

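Over 29 other settings, 247 of 261 values of the 9 genes kept their side of the threshold and, where called, their direction in DMSO recovery against 0 h, 224 of 261 in UNC0642 recovery against 0 h and 244 of 261 in UNC0642 against DMSO recovery. A gene that stayed uncalled counts as kept. In UNC0642 against DMSO recovery the 17 values not kept were all losses of the 2 calls, 7 for PGD and 10 for TKT. With length and GC trends removed, the called falls of TXN after DMSO recovery (0.058) and UNC0642 recovery (0.05) changed sign without being called, and TKT after UNC0642 recovery was called as lower (-0.086); the cause was not tested. Values called in neither setting also changed sign and are not counted here, such as SRXN1 after DMSO recovery (-0.054 to 0.057). Genes of the 9 called in UNC0642 against DMSO recovery (2 with the main settings) numbered 0 in either gap class and without the COL1A2 libraries, 1 in log2(FPKM + 1) and in log2(FPKM + 0.1), and 0 to 2 with a library left out; in UNC0642 recovery against 0 h (7) they numbered 4 in the long-gap libraries and 4 without the COL1A2 libraries. Smaller sets of libraries also gave fewer calls over all genes: 2702 in the short-gap libraries and 2987 without the COL1A2 libraries for DMSO recovery against 0 h (5617), 2836 without the COL1A2 libraries for UNC0642 recovery against 0 h (5990), and 125 in the short-gap, 271 in the long-gap and 277 without the COL1A2 libraries for UNC0642 against DMSO recovery (584, and 375 in log2(FPKM + 0.1)). Calls in the 4 lists were 31 in the short-gap libraries and 34 without the COL1A2 libraries (60) for DMSO recovery against 0 h, 37 without the COL1A2 libraries (66) for UNC0642 recovery against 0 h, and 2 in the short-gap, 3 in the long-gap, 2 without the COL1A2 libraries and 2 to 8 with a library left out (7) for UNC0642 against DMSO recovery. The count of the 9 whose UNC0642 and DMSO ranges were apart (3) was 3 to 5 with a library left out. Same-numbered replicates did not deviate together (correlation -0.103 to 0.045 over 12 pairs). Each library was also matched to its most similar library in each other group, and the numbers agreed in 1 of 24 such matches. The replicates were therefore not treated as paired in the main fit. Whether same-numbered libraries were handled together is not given. With the replicate block the calls were 5668, 5998 and 633 over all genes and 7, 7 and 2 of the 9. At these depths the 9 genes had 1700 to 12500 counts in a library. The spread between replicates beyond counting noise, which edgeR estimates over all genes as a coefficient of variation, was 3.44%. The order of levels across groups by CPM differed from FPKM for SRXN1 alone.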
